A study of Mus musculus with 4 samples.

Results

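The genes described are those of the T cell receptor complex and the T lineage: the CD3 chains, the kinases and adaptors next to the receptor, coreceptors, costimulatory receptors, cytokine receptors and transcription factors. Of 34 listed genes 31 are measured here by a probe that names that gene alone, out of 19057 genes so measured, through 69 of 34885 such probes. The other 3 (Lck, Tcf7 and Sh2d1a) were not analysed here.

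The cells came from the spleens of BXD2 mice, a recombinant inbred strain that develops lupus-like autoimmunity with age. Per the labels the sort for marginal zone macrophages took SIGN-R1-positive cells with little CD11b and neither F4/80 nor I-Ab, and it names no T cell antigen. RNA of 2 mice aged 2.5 months was hybridised to each of 4 single-colour bead arrays, 1 from BXD2-Ifnar-/- mice (no type I interferon receptor) injected with PBS, 1 from BXD2 mice injected with 25 µg sLTβR-Fc, a soluble decoy of the lymphotoxin β receptor, and 2 from BXD2 mice injected with PBS (the controls). All mice were killed 10 hours later, and a group given a control Fc protein is not part of the comparison. The Ifnar-/- and sLTβR-Fc groups are 1 array each, so their own spread is unknown.

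A T cell reads antigen through a receptor whose variable chains have no signalling tail of their own. The CD3 chains carry the signal inwards, where Lck and ZAP-70 phosphorylate the adaptors LAT and SLP-76 and so start the calcium and Ras pathways. T cells of the spleen live in the white pulp beside the marginal zone, and several genes of the list are also used by natural killer (NK) cells, innate lymphoid cells, mast cells or B cells.

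Values are quantile-normalised intensities of the brightest probe of each gene, and the intensities still contain background, so differences of dim genes are understated. All 31 genes passed the filter on dim values, a mean over the 4 arrays above 110.8, and the brightest probes of 29 were above the background limit on every array. That of Cd8a was above it on the control arrays only and that of Cd5 on all but the sLTβR-Fc array. Differences are log2 differences from the mean of the controls with the standard error (SE) of limma, whose only residual degree of freedom comes from the control pair. The p-values, adjusted by the Benjamini-Hochberg method over 12447 genes, therefore assume that each lone array varies as the controls do.

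On the sLTβR-Fc array 15 of the 31 T lineage genes were lower than the controls at an adjusted p under 0.05 (limma), which is 48.4% of them against 8.08% of all genes tested. One gene, Foxp3, was higher, against 10.6% of all genes. The median log2 difference of the 31 genes was -0.42, beside 0.02 over all genes, and 24 of them (77.4%) lay below both control arrays, against 36.4% of all genes. On the Ifnar-/- array 8 of the 31 were lower (25.8%, against 8.09% of all genes) and 1, Il7r, was higher (3.23%, against 7.75%). For Ifnar-/- the median was -0.13, beside 0.02, with 17 of 31 (54.8%) below both controls, against 35.7% of all genes. Above both controls lay 7 of the 31 for Ifnar-/- (22.6%, against 44.2% of all genes) and 3 for sLTβR-Fc (9.68%, against 45% of all genes). By the rule of size, at least 2-fold from each control array, 0 of the 31 were lower or higher in either comparison. Of all genes 1.11% were lower and 0.667% higher by that rule for Ifnar-/-, and 0.554% were lower and 1.19% higher for sLTβR-Fc.

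The 2 controls also stood apart on these genes. Control 2 was higher than control 1 in 26 of 31, by a median log2 of 0.19, while the median over all genes was 0.01. The calls also depend on the moderation of the variance. With values raised to a floor at the background limit limma called 0 of all genes in both comparisons (lowest adjusted p 0.178 and 0.14), and 8 and 12 T lineage genes were lower at an unadjusted p under 0.05 for Ifnar-/- and for sLTβR-Fc (9.48% and 9.46% of all genes). Without the mean-variance trend it called 2 lower for Ifnar-/- (3.23% of all genes) and 5 for sLTβR-Fc (2.15% of all genes).

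**Figure D1:**
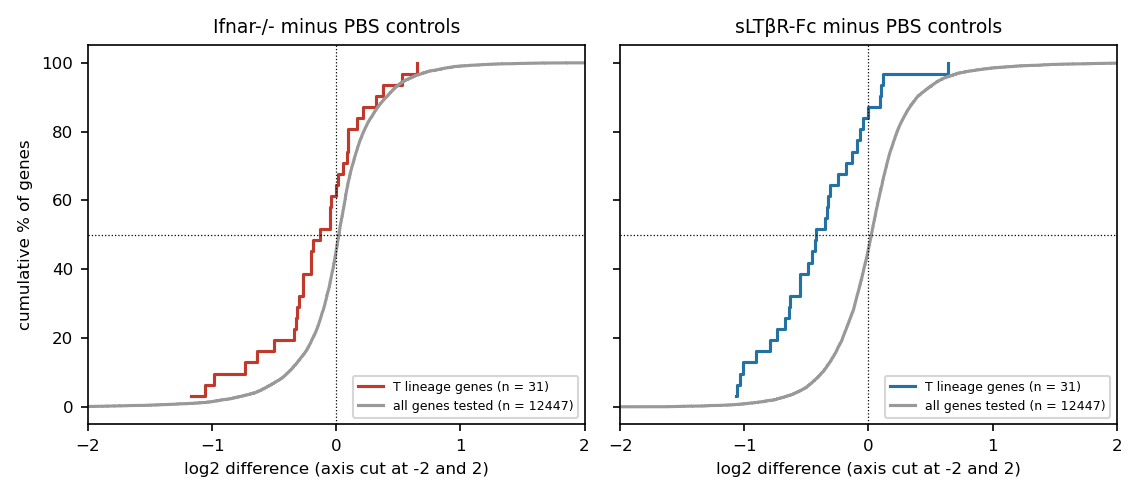
Cumulative share of genes (vertical axis, %) by log2 difference from the control mean (horizontal axis) for the Ifnar-/- array on the left and the sLTβR-Fc array on the right; the coloured line is the 31 T lineage genes and the grey line all 12447 genes tested. The coloured line lies left of the grey line over most of its length, with medians of -0.13 on the left and -0.42 on the right.

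**Figure D2:**
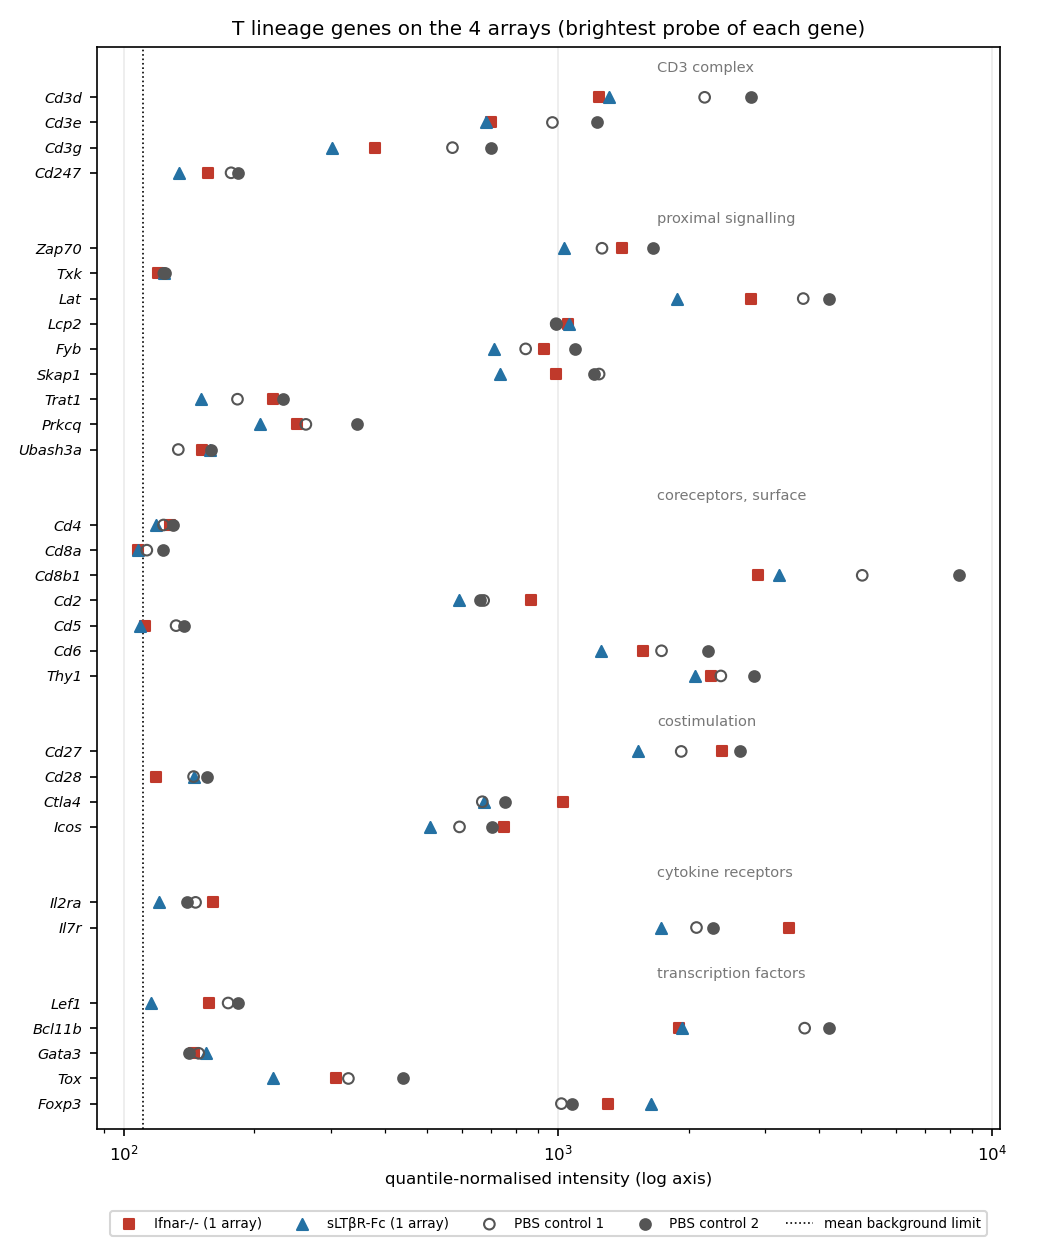
Quantile-normalised intensity (log axis) of the brightest probe of each of the 31 genes, grouped by role; squares are the Ifnar-/- array, triangles the sLTβR-Fc array, and open and filled circles control 1 and control 2. For Cd3d, Cd3e, Cd3g, Lat, Cd8b1 and Bcl11b both the square and the triangle lie left of both circles.

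Of the 4 CD3 chains, which carry the signal of the receptor, 3 were lower for Ifnar-/- and all 4 for sLTβR-Fc. Cd3d, the δ chain, read 1247 for Ifnar-/- and 1313 for sLTβR-Fc, against 2178 and 2781 on the controls. Both lone arrays lay below both controls, by log2 -0.98 ± 0.19 (SE, adjusted p 5.93e-05) for Ifnar-/- and -0.91 ± 0.19 for sLTβR-Fc (adjusted p 0.000219). Cd3e, the ε chain, which pairs with either of the δ and γ chains, read 702 for Ifnar-/- and 684 for sLTβR-Fc, against 971 and 1229 on the controls (log2 -0.64 for Ifnar-/- and -0.68 for sLTβR-Fc, adjusted p 0.0183 and 0.0107). Its other probe gave -0.82 for Ifnar-/- and -0.83 for sLTβR-Fc.

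Cd3g, the γ chain, read 380 for Ifnar-/- and 302 for sLTβR-Fc, against 572 and 701 on the controls, with no overlap between lone arrays and controls (log2 -0.74 ± 0.20 for Ifnar-/- and -1.07 ± 0.20 for sLTβR-Fc, adjusted p 0.00545 and 2.94e-05). Cd247, the ζ chain, which NK cells use as well, read 156 for Ifnar-/- and 134 for sLTβR-Fc, against 177 and 183 on the controls. By the test it fell on the sLTβR-Fc array (log2 -0.42 ± 0.13, adjusted p 0.0163), a call that median scaling ended (log2 -0.20, adjusted p 0.346). Its difference on the Ifnar-/- array was -0.20 ± 0.13 (adjusted p 0.329). The direct difference between the lone arrays, 0.22, did not pass the test (adjusted p 0.398). In such a bulk sample a smaller share of T cells among the sorted cells and less RNA per T cell cannot be told apart.

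The δ, γ and ε genes lie together on mouse chromosome 9, with Cd3d and Cd3g transcribed away from each other from starts 1355 bases apart and Cd3e 27825 bases from Cd3d. Their promoters are shown because the 3 genes were lower together, beside that of Bcl11b, a zinc finger factor that commits thymocytes to the T lineage and was lower on both arrays too. The sequences are from RefSeq (GRCm38.p6), 250 bases before to 50 after each start, and capitals mark 5 short motifs on either strand. The word TGTGGT is bound by Runx proteins, the word CAGGAA by Ets proteins, the word CTTTGA by Lef1 and its relatives, the word AGATAA by Gata3 and its relatives, and the E-box CAGNTG by basic helix-loop-helix proteins.
Cd3d, chr9:44981536-44981835, strand +: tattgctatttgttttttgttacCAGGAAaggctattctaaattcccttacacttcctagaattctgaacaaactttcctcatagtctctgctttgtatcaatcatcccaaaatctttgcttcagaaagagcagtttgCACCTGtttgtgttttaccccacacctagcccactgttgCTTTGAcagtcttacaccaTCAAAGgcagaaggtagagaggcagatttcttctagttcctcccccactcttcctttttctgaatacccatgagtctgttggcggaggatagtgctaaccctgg
Cd3g, chr9:44980382-44980681, strand -: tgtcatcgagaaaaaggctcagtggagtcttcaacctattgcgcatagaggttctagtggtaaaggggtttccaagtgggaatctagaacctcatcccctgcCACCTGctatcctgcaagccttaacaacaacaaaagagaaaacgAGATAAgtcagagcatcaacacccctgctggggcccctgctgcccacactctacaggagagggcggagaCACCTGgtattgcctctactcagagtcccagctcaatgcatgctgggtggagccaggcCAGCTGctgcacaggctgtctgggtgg
Cd3e, chr9:45009562-45009861, strand -: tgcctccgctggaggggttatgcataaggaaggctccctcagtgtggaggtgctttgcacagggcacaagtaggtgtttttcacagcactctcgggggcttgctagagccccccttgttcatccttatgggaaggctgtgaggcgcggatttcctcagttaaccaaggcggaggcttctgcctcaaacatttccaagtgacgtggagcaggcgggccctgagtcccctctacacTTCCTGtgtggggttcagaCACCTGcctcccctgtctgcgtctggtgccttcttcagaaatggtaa
Bcl11b, chr12:108003365-108003664, strand -: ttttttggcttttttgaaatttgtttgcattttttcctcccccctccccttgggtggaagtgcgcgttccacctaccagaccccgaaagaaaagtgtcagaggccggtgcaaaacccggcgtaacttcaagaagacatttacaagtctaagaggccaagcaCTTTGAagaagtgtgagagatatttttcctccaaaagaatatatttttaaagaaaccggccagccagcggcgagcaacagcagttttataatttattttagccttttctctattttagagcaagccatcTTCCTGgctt
Cd3d holds the CTTTGA word on both strands, 1 CAGGAA word and 1 E-box, Cd3g the AGATAA word and 3 E-boxes, Cd3e 1 CAGGAA word and 1 E-box, and Bcl11b 1 CAGGAA and 1 CTTTGA word. The table holds 33 promoters of 24 listed genes, some of them alternative starts of 1 gene that can overlap. CAGGAA is in 54.5% of these (30.6% of all 32851 promoters of that length), CTTTGA in 30.3% (16%), AGATAA in 21.2% (11.2%), CAGNTG in 69.7% (51.4%) and TGTGGT in 18.2% (16.8%). These are matches of letters and show no binding.

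Among 9 genes of proximal signalling, 4 were lower on the sLTβR-Fc array and 1 on the Ifnar-/- array. Lat, the membrane adaptor that gathers the signalling complex and that mast cells and platelets use as well, read 2783 for Ifnar-/- and 1883 for sLTβR-Fc, against 3675 and 4205 on the controls. It lay below both controls on both arrays (log2 -0.50 ± 0.18 for Ifnar-/- and -1.06 ± 0.18 for sLTβR-Fc, adjusted p 0.0482 and 3.93e-06). Its call on the Ifnar-/- array was lost under 6 of 10 alternative settings, with adjusted p between 0.0151 and 0.223. Skap1, an adaptor that links the receptor to integrin adhesion, read 988 for Ifnar-/- and 737 for sLTβR-Fc, against 1244 and 1210 on the controls (log2 -0.31 for Ifnar-/- and -0.74 for sLTβR-Fc, adjusted p 0.312 and 0.00413). One of its probes went the other way (0.06 for Ifnar-/- and 0.19 for sLTβR-Fc).

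Prkcq, which encodes protein kinase C θ, the link to NF-κB, read 250 for Ifnar-/- and 206 for sLTβR-Fc, against 263 and 345 on the controls (log2 -0.27 for Ifnar-/- and -0.55 for sLTβR-Fc, adjusted p 0.397 and 0.0342). Trat1, an adaptor that binds the receptor complex, was within the control range on the Ifnar-/- array at 221 and below it on the sLTβR-Fc array at 150, against 183 and 233 on the controls (log2 0.10 for Ifnar-/- and -0.46 for sLTβR-Fc, adjusted p 0.761 and 0.0388). The sLTβR-Fc call of Trat1 was lost under 5 of 10 alternative settings. The other probe of Trat1 read below both controls on both arrays, at 115 for Ifnar-/- and 116 for sLTβR-Fc against 133 and 144. It gave log2 -0.27 for Ifnar-/-, a call in the fit with 1 row a probe, and -0.25 for sLTβR-Fc, which was not. Zap70, the kinase that binds phosphorylated CD3 tails, read 1405 for Ifnar-/- and 1032 for sLTβR-Fc, against 1264 and 1654 on the controls, and did not pass the test (log2 -0.04 for Ifnar-/- and -0.49 for sLTβR-Fc, adjusted p 0.929 and 0.0729). Its other probe above the filter gave -0.01 for Ifnar-/- and -0.66 for sLTβR-Fc, the last a call in the fit with 1 row a probe. Lcp2, which encodes SLP-76 and is also used by myeloid and mast cells, lay slightly above both controls on both arrays by its brightest probe, at 1057 for Ifnar-/- and 1061 for sLTβR-Fc against 991 and 988 on the controls. Its further probes gave -0.14 and 0.08 for Ifnar-/- and -0.28 and -0.21 for sLTβR-Fc, none of them a call. Fyb, Txk and Ubash3a did not pass the test either, with log2 differences between -0.43 and 0.12.

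Of 7 coreceptor and surface genes, 2 were lower for Ifnar-/- and 3 for sLTβR-Fc. Cd8b1, the β chain of the CD8 coreceptor of cytotoxic T cells, read 2892 for Ifnar-/- and 3226 for sLTβR-Fc, against 5024 and 8411 on the controls (log2 -1.17 ± 0.19 for Ifnar-/- and -1.01 ± 0.19 for sLTβR-Fc, adjusted p 6.02e-07 and 1.64e-05). Both lone arrays lay below both controls, which were themselves the farthest apart of any of the 31 genes (log2 0.74). The SE rests mainly on the spread over other genes (93.4 prior degrees of freedom against 1 residual). Without the mean-variance trend both calls of Cd8b1 were lost (limma, adjusted p 0.0962 for Ifnar-/-). The mean of its probes also ended the sLTβR-Fc call (log2 -0.27). The probes of Cd8b1 disagreed: 1 gave -1.15 for Ifnar-/- and -0.60 for sLTβR-Fc, and 1 gave 0.01 for Ifnar-/- and 0.80 for sLTβR-Fc, the last a call in the fit with 1 row a probe (adjusted p 0.011). The brightest probe of Cd8a, the α chain, was not above background on either lone array and read 113 and 123 on the controls (log2 -0.13 for Ifnar-/- and for sLTβR-Fc, adjusted p 0.225 and 0.196). Its other probe, below the filter, went the other way and was above background on the Ifnar-/- array alone, at 113 for Ifnar-/- and 108 for sLTβR-Fc, against 104 and 101 on the controls, so Cd8a has no settled direction.

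Cd4, the coreceptor of helper T cells, was dim everywhere, at 128 for Ifnar-/- and 119 for sLTβR-Fc and 123 and 130 on the controls, and did not pass the test (adjusted p 0.94 and 0.51). Cd6, an inhibitory scavenger receptor family protein of T cells, read 1569 for Ifnar-/- and 1260 for sLTβR-Fc, against 1733 and 2217 on the controls. It lay below both controls on both arrays and was lower by the test on the sLTβR-Fc array (log2 -0.32 for Ifnar-/- and -0.64 for sLTβR-Fc, adjusted p 0.286 and 0.0128), and its further probes above the filter ran the same way. Cd5, a relative of it that dampens receptor signals, read 112 on the Ifnar-/- array, was not above background on the sLTβR-Fc array and read 132 and 138 on the controls, at least 1.21-fold lower on the sLTβR-Fc array (log2 -0.27 for Ifnar-/- and -0.31 for sLTβR-Fc, adjusted p 0.0158 and 0.00426). Under median scaling the difference of Cd5 was -0.15 for Ifnar-/- (adjusted p 0.536) and 0.03 for sLTβR-Fc, and neither was a call. Cd2, an adhesion receptor that mouse B cells carry too, and Thy1, a surface glycoprotein of T and innate lymphoid cells, did not pass the test, with Cd2 at log2 0.38 for Ifnar-/- and -0.18 for sLTβR-Fc and Thy1 at -0.20 for Ifnar-/- and -0.32 for sLTβR-Fc.

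Of 4 costimulatory receptors 1 was lower on each lone array by the test, Cd28 for Ifnar-/- and Cd27 for sLTβR-Fc. Cd28, the main costimulatory receptor, was lower on the Ifnar-/- array at 118, read 145 on the sLTβR-Fc array and 145 and 155 on the controls (log2 -0.34 ± 0.11 for Ifnar-/-, adjusted p 0.0185, and -0.05 ± 0.11 for sLTβR-Fc, adjusted p 0.817). Cd28 has 1 probe, a dim one. Its call was kept in 7 of 10 alternative settings and lost with median scaling (log2 -0.25, adjusted p 0.325), with a floor and without the trend. Cd27, a TNF receptor family member of T, B and NK cells, was within the control range on the Ifnar-/- array at 2387 and below it on the sLTβR-Fc array at 1529, against 1924 and 2621 on the controls (log2 0.09 for Ifnar-/- and -0.55 for sLTβR-Fc, adjusted p 0.825 and 0.0313). Its further probes lay near 0 (median 0.12 for Ifnar-/- and -0.03 for sLTβR-Fc), and the sLTβR-Fc call was lost under 5 of 10 alternative settings, with the mean of probes at -0.20. Ctla4, the inhibitory counterpart of Cd28, read 1027 for Ifnar-/- and 677 for sLTβR-Fc against 670 and 755 on the controls and Icos, a costimulator of follicular helper T cells, 751 for Ifnar-/- and 509 for sLTβR-Fc against 593 and 704 on the controls. Neither passed the test in either comparison, with adjusted p between 0.0573 and 0.85.

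Il7r, the α chain of the interleukin 7 receptor that keeps naive T cells and innate lymphoid cells alive, was higher on the Ifnar-/- array by its brightest probe. It read 3412 for Ifnar-/- and 1727 for sLTβR-Fc, against 2086 and 2275 on the controls (log2 0.65 ± 0.19 for Ifnar-/-, adjusted p 0.0087, and -0.34 ± 0.19 for sLTβR-Fc, adjusted p 0.213). Its 5 probes split on the Ifnar-/- array: a second probe gave 0.75, while 3 gave -0.34, -0.17 and -0.25. The call was lost with the mean of probes (log2 0.13, adjusted p 0.639), as deposited (0.30, adjusted p 0.349) and with a floor. The direction of Il7r on the Ifnar-/- array is thus not settled by these data. All 5 read below the control mean on the sLTβR-Fc array, between -0.95 and -0.18. Where these probes lie in the transcripts was not analysed here. Il2ra, the α chain of the interleukin 2 receptor, was dim, at 160 for Ifnar-/- and 121 for sLTβR-Fc against 146 and 140 on the controls, and did not pass the test against them (adjusted p 0.34 and 0.104). The other probe of Il2ra gave 0.35 for Ifnar-/-, a call in the fit with 1 row a probe, and -0.04 for sLTβR-Fc.

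Of 5 transcription factors, 3 were lower and 1 was higher on the sLTβR-Fc array, and 1 was lower on the Ifnar-/- array. Bcl11b read 1897 for Ifnar-/- and 1927 for sLTβR-Fc, against 3703 and 4210 on the controls (log2 -1.06 ± 0.18 for Ifnar-/- and -1.03 ± 0.18 for sLTβR-Fc, adjusted p 5.01e-06 and 8.15e-06). Both lone arrays lay well below both controls and close to each other, and its 4 probes were lower on both arrays without exception (-1.06 to -0.18 for Ifnar-/-, -1.03 to -0.25 for sLTβR-Fc). Lef1, a partner of Tcf7 in naive T cells, read 157 for Ifnar-/- and 115 for sLTβR-Fc, against 174 and 184 on the controls (log2 -0.19 for Ifnar-/- and -0.63 for sLTβR-Fc, adjusted p 0.345 and 7.09e-05). Its further probes, close to background, gave a median of -0.01 for Ifnar-/- and -0.08 for sLTβR-Fc. The sLTβR-Fc call of Lef1 was lost with median scaling and with a floor.

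Tox, a factor of thymic development and of exhausted T cells, read 309 for Ifnar-/- and 220 for sLTβR-Fc, against 329 and 440 on the controls (log2 -0.30 for Ifnar-/- and -0.79 for sLTβR-Fc, adjusted p 0.345 and 0.00232). Gata3, a factor of type 2 helper T cells and innate lymphoid cells, stayed between 141 and 154 on the 4 arrays. Foxp3, the factor of regulatory T cells, read 1306 for Ifnar-/- and 1637 for sLTβR-Fc against 1019 and 1078 on the controls, above both on both arrays, and was higher by the test on the sLTβR-Fc array (log2 0.32 for Ifnar-/- and 0.64 ± 0.20 for sLTβR-Fc, adjusted p 0.296 and 0.0126). Its 2 further probes above the filter gave -0.35 and -0.39 on the sLTβR-Fc array, the mean of its probes gave -0.03, and the values as deposited gave -0.045, so the direction of Foxp3 there is not settled by these data.

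**Figure D3:**
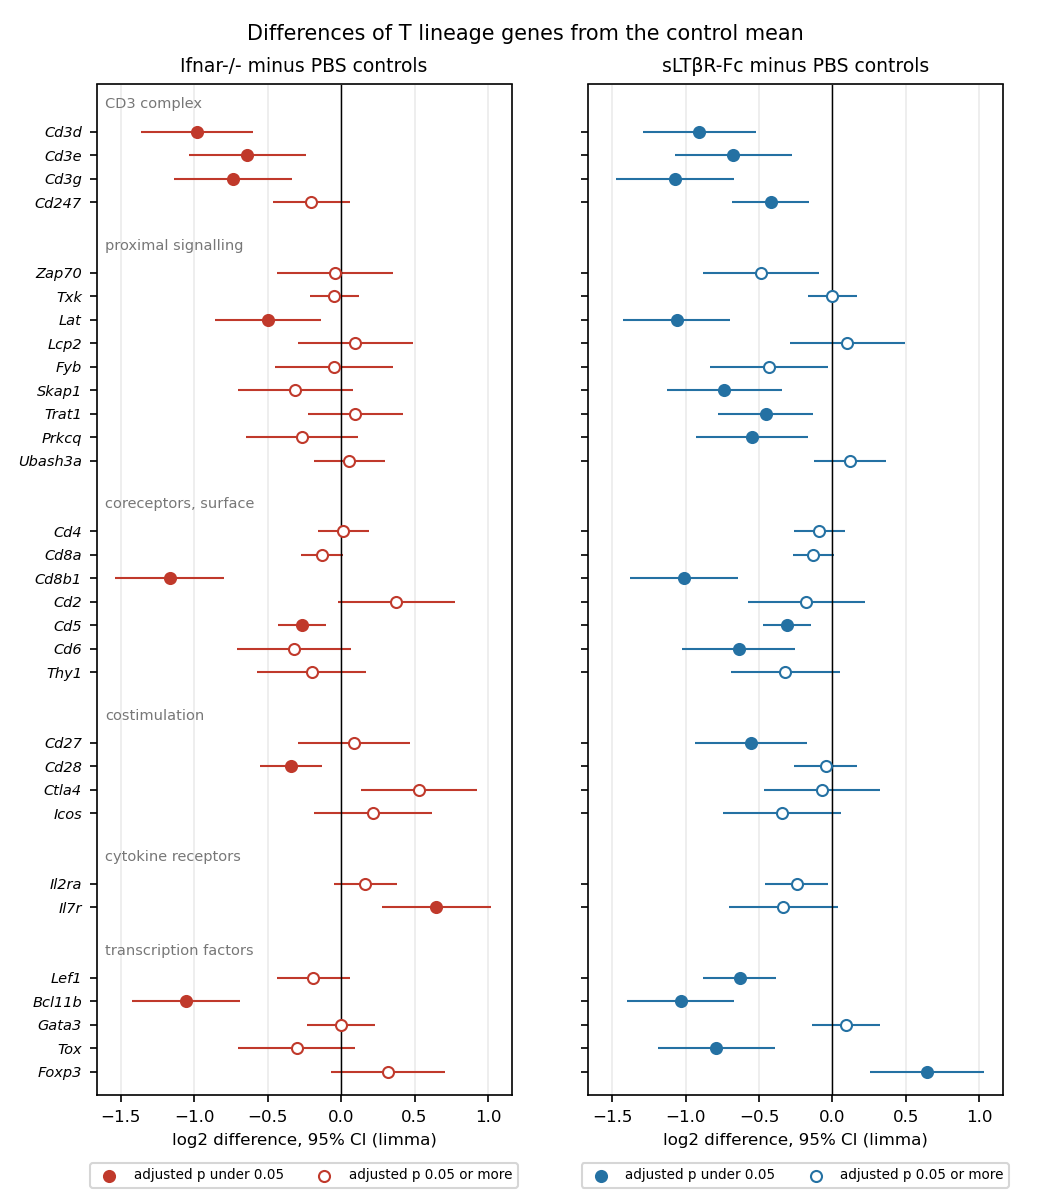
Log2 difference from the control mean with its 95% confidence interval (limma) for each of the 31 genes, the Ifnar-/- array on the left and the sLTβR-Fc array on the right, grouped by role; filled points have an adjusted p under 0.05. There are 8 filled points below 0 and 1 above on the left, and 15 below and 1 above on the right.

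**Figure D4:**
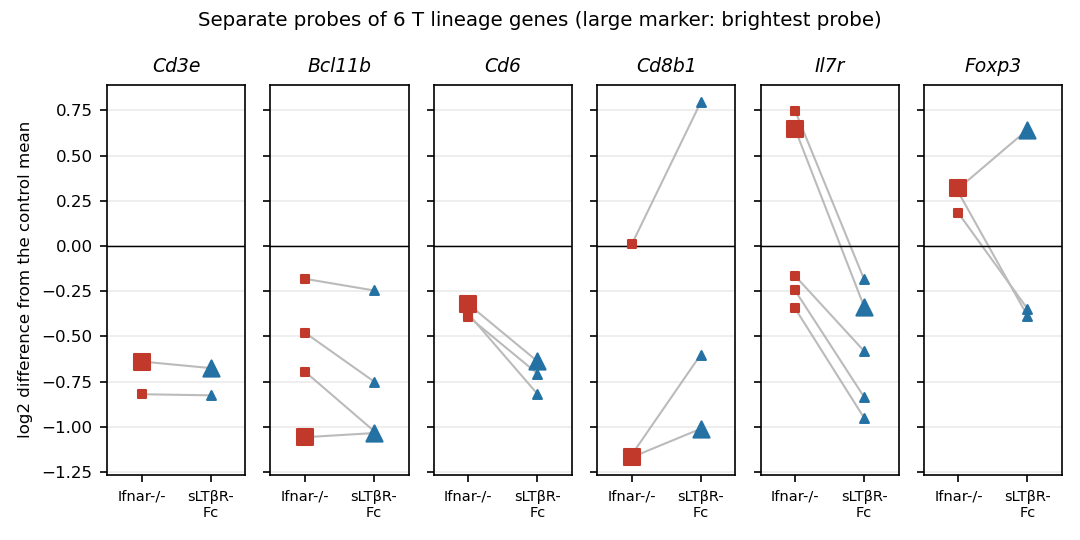
Log2 difference from the control mean (vertical axis) for every probe above the background limit of 6 genes, squares for the Ifnar-/- array and triangles for the sLTβR-Fc array, a grey line joining the values of 1 probe and a larger marker the brightest probe. Probes of Cd3e, Bcl11b and Cd6 lie below 0 on both arrays, whereas those of Cd8b1, Il7r and Foxp3 fall on both sides.

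Across all probes of the set, 40 of 62 above the filter were below the control mean for Ifnar-/- (46.8% of all probes) and 55 of 62 for sLTβR-Fc (49.6% of all probes). Probes of 1 gene share their target and are not independent. In the fit with 1 row a probe, chosen after the values were seen, 13 of the 62 were lower and 3 higher on the Ifnar-/- array (6.79% and 6.2% of all probes) and 28 lower and 2 higher on the sLTβR-Fc array (8.02% and 7.92%). Further probes had the sign of the brightest probe in 21 of 31 cases for Ifnar-/- and in 24 of 31 for sLTβR-Fc.

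The lone arrays were then set against each other, a comparison that does not use the control values other than for the spread. Of the 31 genes 22 (71%) were higher on the Ifnar-/- array than on the sLTβR-Fc array, against 48.5% of all genes, and the median log2 difference was 0.28, beside -0.01. By the test 5 were higher (16.1%, against 5.52% of all genes) and 0 lower (7.28% of all genes), with 10 higher and 1 lower at an unadjusted p under 0.05 (11.9% and 13.5% of all genes). By size 0 of the 31 were 2-fold lower or higher, against 1.83% and 0.86% of all genes. The 5 called were Il7r (log2 0.98 ± 0.22, adjusted p 0.000465), Cd27 (0.64, adjusted p 0.0412), Trat1 (0.55, adjusted p 0.0385), Lef1 (0.44, adjusted p 0.0294) and Il2ra (0.41, adjusted p 0.018). All 5 probes of Il7r read higher on the Ifnar-/- array than on the sLTβR-Fc array, among them a probe at 414 for Ifnar-/- against 217 for sLTβR-Fc. The calls of Cd27, Trat1, Lef1 and Il2ra were each lost under 5 to 7 of 10 alternative settings. The other probe of Trat1 gave a direct difference of -0.02.

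Cd3d, Cd3e, Cd8b1 and Bcl11b, which were lower on both arrays by their brightest probes, did not pass the test between them on those probes (adjusted p 0.706 to 0.965). The direct difference was -0.08 for Cd3d (95% interval -0.52 to 0.37), 0.04 for Cd3e (-0.43 to 0.50), -0.16 for Cd8b1 (-0.58 to 0.27) and -0.02 for Bcl11b (-0.45 to 0.40). For Cd3g, also lower on both arrays by the test, it was 0.33 (-0.13 to 0.80), with an adjusted p of 0.397. Cd5, lower on both as well, gave 0.04 (-0.15 to 0.23). For Lat the direct difference was 0.56 (0.15 to 0.98), with an adjusted p of 0.0618. Apart from that of Lat, each interval covers differences of either sign. The probes of Cd8b1 disagreed here too. Its further probes gave direct differences of -0.79, a call in the fit with 1 row a probe, and -0.55, which was not.

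**Figure D5:**
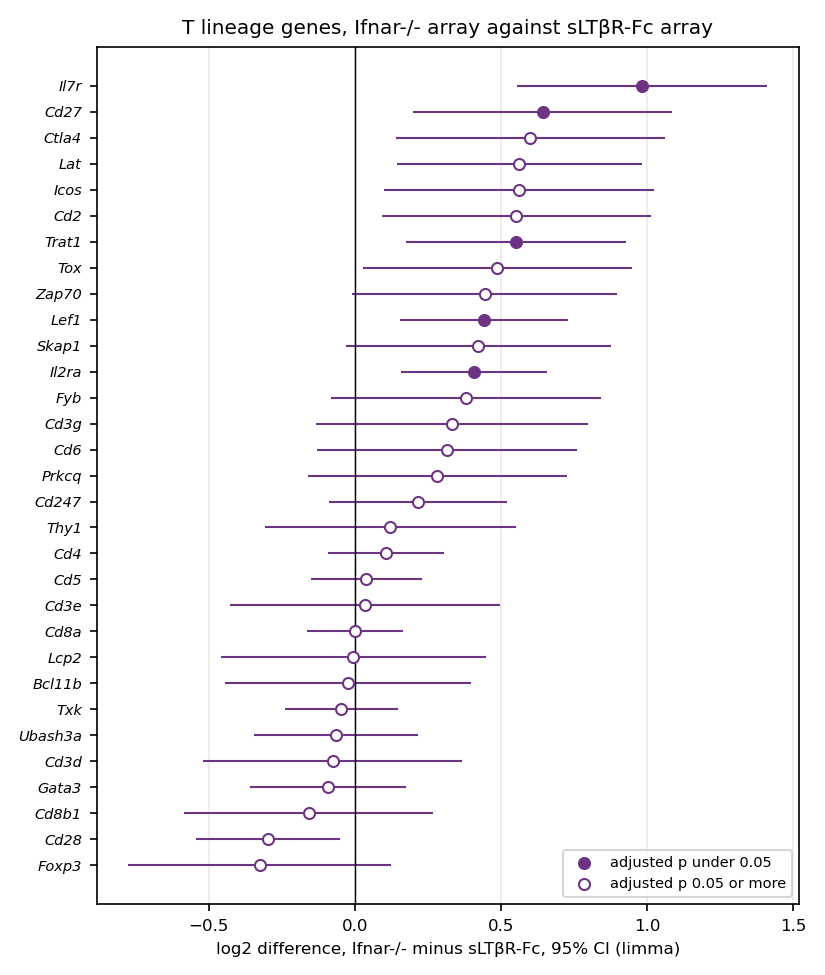
Log2 difference, Ifnar-/- array minus sLTβR-Fc array, with its 95% confidence interval (limma) for the 31 genes in order of size; filled points have an adjusted p under 0.05. Il7r stands highest at 0.98, and Cd3d, Cd3e and Bcl11b lie within 0.08 of 0.

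Other genes of T cell biology were read from lists chosen with earlier results of these data known. Of 31 further genes of receptor signalling that were tested, many are used by all leukocytes. On the Ifnar-/- array 1 was lower (3.23%, against 8.09% of all genes) and 7 higher (22.6%, against 7.75%). On the sLTβR-Fc array 5 were lower (16.1%, against 8.08% of all genes) and 1 higher (3.23%, against 10.6%). Nfatc2, a calcium-dependent transcription factor, was lower on both, at 321 for Ifnar-/- and 275 for sLTβR-Fc against 697 and 562 on the controls (log2 -0.96 for Ifnar-/- and -1.19 for sLTβR-Fc, adjusted p 0.000181 and 3.26e-06). Csk, the kinase that restrains Lck, and Was, an actin regulator, were higher on the Ifnar-/- array (Csk by log2 0.87, Was by 0.86), and Cblb, a ubiquitin ligase that restrains receptor signals, and Ptprc, which encodes CD45, were lower on the sLTβR-Fc array (Cblb by log2 -1.05, Ptprc by -0.61).

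Among 14 genes of homing and quiescence, 0 were lower and 2 higher (14.3%) on the Ifnar-/- array. On the sLTβR-Fc array 5 were lower (35.7%) and 2 higher (14.3%). Of all genes 8.09% were lower and 7.75% higher for Ifnar-/-, and 8.08% were lower and 10.6% higher for sLTβR-Fc. Klf2 and Itgb7, a quiescence factor and an integrin chain, were higher on the Ifnar-/- array (Klf2 by log2 0.71, Itgb7 by 0.59). On the sLTβR-Fc array Cd69, an early activation antigen of many leukocytes, was higher, at 5738 against 1695 and 2342 on the controls (log2 1.53 ± 0.19, adjusted p 3.09e-10), and Ets1 and Cxcr5 were lower (Ets1 by log2 -1.03, Cxcr5 by -0.73), while Klf2 was higher (log2 0.64). Of 22 genes of effector and regulatory T cells, 2 were lower (9.09%) and 3 higher (13.6%) on the Ifnar-/- array. On the sLTβR-Fc array 7 were lower (31.8%) and 3 higher (13.6%). The share lower on the Ifnar-/- array and the share higher on the sLTβR-Fc array are close to those of all genes. Il4, made by helper T cells and basophils, was higher on both, at 410 for Ifnar-/- and 553 for sLTβR-Fc against 165 and 258 on the controls, Ifng read 951 on the sLTβR-Fc array against 353 and 366 on the controls (log2 1.40), and Eomes, a factor of NK and cytotoxic T cells, 644 on the sLTβR-Fc array against 1395 and 1968 on the controls (log2 -1.36). On the Ifnar-/- array Havcr2, an inhibitory receptor, was higher (log2 0.94) and Il21, a follicular helper cytokine, lower (log2 -0.43).

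Markers of other cell types moved on the same arrays, and their part in the results above was not tested. Beside the marker counts stand the shares of all genes tested. These are 8.09% lower and 7.75% higher for Ifnar-/-, and 8.08% lower and 10.6% higher for sLTβR-Fc. The summed intensity of the 31 T lineage genes was 29990 for Ifnar-/- and 24750 for sLTβR-Fc, against 33730 and 42120 on the controls. Such sums are carried by the brightest genes. Cd8b1, whose probes disagree, gave 2892 of the sum for Ifnar-/- and 3226 for sLTβR-Fc, against 5024 and 8411 on the controls. Of 12 B cell markers tested 8 were higher on the Ifnar-/- array and 4 lower on the sLTβR-Fc array, with sums over 13 measured of 31910 for Ifnar-/- and 15480 for sLTβR-Fc, against 21260 and 20870 on the controls. Of 10 NK cell markers 8 were higher on the Ifnar-/- array and 3 were lower and 1 higher on the sLTβR-Fc array, with sums over 11 of 25110 for Ifnar-/- and 19250 for sLTβR-Fc, against 19190 and 22620 on the controls. The brightest, Prf1, read 10056 for Ifnar-/- and 10810 for sLTβR-Fc, against 12959 and 12678 on the controls. For Ifnar-/- Prf1 was the 1 marker below the control mean, and 9 were above it. All 9 mast cell and basophil markers were higher on the sLTβR-Fc array, and 2 were lower and 1 higher on the Ifnar-/- array, with sums of 13850 for Ifnar-/- and 41470 for sLTβR-Fc, against 14630 and 18630 on the controls.

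The shares of all genes are again 8.09% lower and 7.75% higher for Ifnar-/-, and 8.08% lower and 10.6% higher for sLTβR-Fc. Of 5 eosinophil markers 4 were higher on the sLTβR-Fc array, with sums over 7 measured of 4558 for Ifnar-/- and 28160 for sLTβR-Fc, against 5320 and 6004 on the controls. Of 11 neutrophil markers 7 were lower and 1 higher for Ifnar-/-, and 2 were higher for sLTβR-Fc, with sums of 5019 for Ifnar-/- and 22200 for sLTβR-Fc, against 21370 and 12640 on the controls. Of 6 innate lymphoid genes 4 were higher for Ifnar-/- and 2 for sLTβR-Fc (sums 7337 for Ifnar-/- and 4768 for sLTβR-Fc, against 4222 and 3912 on the controls). Of 10 conventional dendritic cell genes 6 were higher for Ifnar-/- and 2 for sLTβR-Fc (sums 4873 for Ifnar-/- and 3534 for sLTβR-Fc, against 3598 and 3593 on the controls). Of 7 plasmacytoid dendritic cell genes 1 was lower and 1 higher for Ifnar-/- and 0 were called for sLTβR-Fc (sums over 8 of 11900 for Ifnar-/- and 10960 for sLTβR-Fc, against 11780 and 11230 on the controls). Of 7 erythroid genes 5 were lower for Ifnar-/- and 3 for sLTβR-Fc (sums 2294 for Ifnar-/- and 2979 for sLTβR-Fc, against 6429 and 3646 on the controls).

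Of 11 marginal zone macrophage genes, the labelled cell type, 9 were tested. For Ifnar-/- 1 was lower (11.1%, against 8.09% of all genes) and 3 higher (33.3%, against 7.75%). For sLTβR-Fc 1 was higher (11.1%, against 10.6% of all genes). Their sums were 6218 for Ifnar-/- and 5194 for sLTβR-Fc, against 4651 and 3686 on the controls. Cd209b, the gene of SIGN-R1 used in the sort, read 152 for Ifnar-/- and 145 for sLTβR-Fc, against 127 and 130.1 on the controls, and 2 of the 11, Siglec1 among them, were not above background on any array. Sirpa, which other myeloid cells share, read 3468 for Ifnar-/- and 3286 for sLTβR-Fc, against 2236 and 1926 on the controls. Cd209d read 1304 for Ifnar-/- and 315 for sLTβR-Fc, against 216 and 306 on the controls. Sirpa and Cd209d made up most of the Ifnar-/- sum. Axl went the other way, at 238 for Ifnar-/- against 1016 and 436 on the controls, and 485 for sLTβR-Fc. Of the 9 tested, 6 read above the control mean and 3 below it in each comparison. H2-Ab1, whose product the gate excluded, read 16289 for Ifnar-/- and 9488 for sLTβR-Fc, against 8662 and 8305 on the controls.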

How the data were processed

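The authors deposited a linear intensity for each of 45281 probes on every Illumina bead array, and the submitters' processing notes name GenomeStudio 2011.1. Any background subtraction or scaling by the authors is not stated in those notes. The deposited upper quartiles of intensity differ between arrays (146.1 to 187.6). Genes were named through the platform annotation (34885 probes with 1 symbol, 18 with several, 10378 with none), and the identifiers of all 31 genes lead to the same symbol in the RefSeq table of mouse.

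Each array's background limit was the 95% point of the noise around its most frequent intensity, and 52.4% to 53.9% of probes passed it. Values were quantile normalised and converted to log2, the brightest probe stood for a gene, and genes with a mean above the averaged limit (110.8) were tested. limma 3.58.1 (R 4.3.3) fitted 3 group means with a mean-variance trend (1 residual degree of freedom, 93.4 prior degrees), with Benjamini-Hochberg adjustment and a threshold of 0.05. The fit was tested on simulated data. After normalisation the controls had r = 0.9918 over genes (not independent points), with 31 genes 2-fold apart, and other pairs of arrays had 277 to 425. Nothing in the labels says that the 2 control arrays came from separate mice, so p-values measure only the spread of this pair, possibly a technical one, and the number of arrays limits the precision. For a gene at background in a group a lower bound of the fold is given, from the dimmest signal that passed the limit there.

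The members and lists were chosen with earlier results of these data known. All 31 genes are named, most with their own values, and Fyb, Txk, Ubash3a and Gata3 by a range only. From each further T cell list the 3 genes with the lowest p in each comparison are named where they passed the test. Marker lists of other cell types are given as counts and sums, with a few genes named. Alternatives covered scaling, background, floor, filter, moderation, probe choice and each control left out.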

Additional observations from a re-analysis of the deposited data

How the results depend on the processing

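No paired analysis was possible because the groups share only 1 replicate number. With 2 control arrays, leaving out 1 leaves no residual degree of freedom, so those settings give values with no test. Of the T lineage genes, the number lower on the Ifnar-/- array (8, beside 8.09% of all genes) was 0 with a floor, 5 with no filter (4.2% of all genes) and 2 without the trend (3.23%), and the number lower on the sLTβR-Fc array (15, beside 8.08% of all genes) was 24 in the values as deposited (37.2% of all genes), 0 with a floor and 5 without the trend (2.15%). With a floor 0 of all genes passed in either comparison. The number higher on the Ifnar-/- array (1, beside 7.75% of all genes) was 0 as deposited (1.44%), with a floor (0%) and with the mean of probes (6.72%). Among genes above background on all 4 arrays it was 2 (9.14%). On the sLTβR-Fc array the number higher (1, beside 10.6% of all genes) was 0 as deposited, with median scaling and with a floor. It was also 0 with no filter and with the mean of probes. For that array the calls over all genes in either direction, 2328 in the main fit, were 4802 as deposited and 4816 with median scaling. They numbered 0 with a floor, 1730 of 19057 with no filter and 1905 with the mean of probes. Between the lone arrays the number higher on the Ifnar-/- array (5, beside 5.52% of all genes) was 0 with a floor. It was 1 with no filter, 1 without the trend and 3 with the mean of probes. With 1 row a probe, a setting chosen after seeing the data, it was also 3. The number lower (0, beside 7.28% of all genes) was 1 among genes above background on all 4 arrays. Over all genes the calls in either direction, 1593 in the main fit, were 0 with a floor and 1116 of 19057 with no filter. They numbered 372 without the trend, 1234 with the mean of probes, 1709 of 10765 above background on all 4 arrays and 1800 of 19365 probes.

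The median log2 difference was -0.375 as deposited on the Ifnar-/- array (all genes -0.156). It was -0.049 among genes above background on all 4 arrays, -0.213 without control 1 and -0.068 without control 2. On the sLTβR-Fc array it was -1.006 as deposited (all genes -0.303) and -0.563 with median scaling (all genes 0.14), and from -0.466 (without control 1) to -0.277 (without control 2). Between the lone arrays it was 0.42 as deposited (all genes 0.094), and from 0.273 to 0.279 with a control left out. Genes 2-fold lower numbered 3 as deposited (2.39% of all genes), 1 with median scaling (1.21%) and 3 without control 1 (1.25%; 0 without control 2) on the Ifnar-/- array, and 12 as deposited (5.23% of all genes), 4 with median scaling (1.03%), 1 with normexp (0.828%) and 5 without control 1 (0.86%; 0 without control 2) on the sLTβR-Fc array. The called direction turned in 3 cases on the sLTβR-Fc array: Cd5 to 0.029 with median scaling, and Foxp3 to -0.045 as deposited and -0.03 with the mean of probes. Calls against the controls were kept in 4 (Lat) to 9 (Cd3d, Bcl11b) of 10 tested alternatives for Ifnar-/-, and in 5 (Trat1, Cd27, Foxp3) to 9 (Cd3g, Lat, Bcl11b) of 10 for sLTβR-Fc. Cd5, tested in 9, kept its call in 5 for Ifnar-/- and in 6 for sLTβR-Fc. Dim genes such as Cd4, Cd8a, Cd5, Cd28 and Txk lie so close to background that only large changes could be seen.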

Other observations

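Variable segments of the T cell receptor genes were looked at after the values had been seen. Of 6 segments with a probe of their own, Trgv4, a variable segment of the γ chain used by γδ T cells, was higher on both arrays, at 576 for Ifnar-/- and 667 for sLTβR-Fc, against 241 and 283 on the controls (log2 1.14 ± 0.19 for Ifnar-/- and 1.35 ± 0.19 for sLTβR-Fc, limma with 1 row a probe, adjusted p 0.000165 and 1.94e-05). Trbv13-2, a β chain segment, read 1677 for Ifnar-/- and 1136 for sLTβR-Fc, against 1220 and 1982 on the controls (log2 0.11 for Ifnar-/- and -0.45 for sLTβR-Fc) on its brighter probe, which did not pass the test (adjusted p 0.827 and 0.197). Its dimmer probe and the probe of Trbv13-1 were lower on the sLTβR-Fc array (log2 -0.35 and -0.30, adjusted p 0.0206 and 0.0388), and Trgv7 did not pass the test. Trgv5 and Trgv6 were not above background on any array.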
